A study of Mus musculus with 18 samples.

Results

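Total RNA of immortalised mouse embryonic fibroblasts that lacked the kinases JNK1 and JNK2 was compared with that of their wildtype counterparts after co-culture with human keratinocytes. The comparison takes the 8 arrays of days 2 and 4 among the 18 of the series, 4 of each genotype. Per the labels, the fibroblasts came from wildtype or jnk1-/-jnk2-/- embryos of embryonic day 10 with a mixed BL6/129/Sv background and were immortalised by the 3T3 protocol, in which cultures are passaged until they escape senescence. Both genotypes grew on transwell inserts above primary human epidermal keratinocytes (NHEK) in one FAD medium with calcium-depleted serum, insulin, hydrocortisone, cholera toxin, adenine and human EGF. Fresh inserts replaced the old ones at 2-day intervals, so that day 2 holds the first set of inserts and day 4 the second, each after the same length of co-culture but over keratinocytes at different stages. On each day and in each genotype there were 2 arrays, of which the first held RNA of 2 pooled inserts and the second RNA of 1 insert. The labels name a single culture of each genotype, so genotype and the history of a cell line cannot be told apart here, and the p-values measure the spread between inserts and arrays rather than between embryos.

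JNK1 and JNK2, encoded by Mapk8 and Mapk9, are stress-activated members of the MAP kinase family. They are switched on by the kinases MKK4 and MKK7 and phosphorylate Jun, Atf2 and other transcription factors that bind AP-1 sites as dimers of the Jun, Fos and Atf families. Fibroblast Jun is known from skin co-cultures to govern the growth factors and cytokines that dermal cells send to the epidermis, Fgf7 among them.

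The readout was a single-colour bead array from Illumina, on which a biotin-labelled copy of the RNA binds gene-specific probes, and values are given as normalised log2 intensities, so that a difference of 1 is a 2-fold change. Mean raw intensity ran from 436 to 482 on the wildtype arrays and from 407 to 431 on the knockout arrays, and 38.0% to 39.2% of probes on any array had a detection p-value under 0.01. The mean intensity of the genotypes did not overlap, while their shares of detected probes did. After removal of probes detected on fewer than 2 of the 8 arrays, 14259 features remained, of which 10967 carried a gene symbol and 9441 were detected on all 8 arrays. The number of arrays limits the precision: the median standard error of the genotype difference was 0.14. Principal component 1 took up 83.2% of the variance and placed the wildtype arrays between -56.1 and -54.5 and the knockout arrays between 53.5 and 56.2. Replicate arrays correlated at 0.989 to 0.992 over all features and arrays of different genotype at 0.920 to 0.926.

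The genotypes differed over a large part of the transcriptome. With day as a block, limma called 7051 of the 14259 features (49.4%) at a Benjamini-Hochberg adjusted p-value under 0.05, 3727 higher in the knockout (26.1%) and 3324 lower (23.3%). Of these, 1982 differed at least 2-fold, 673 at least 4-fold and 122 at least 16-fold, against a median difference over all features of 0.04. Tested against a minimum difference of 1 on the log2 scale with limma's treat, 1193 features passed, 536 higher and 657 lower. In 43.8% of the features the 4 knockout arrays did not overlap with the 4 wildtype arrays. At the other end, the 95% interval of the difference lay within 0.5 of 0 for 3886 features (27.3%). Every count of a gene group below is to be read against these shares. The balance of higher and lower calls rests on the scaling: 52.9% of the calls were higher in the knockout after quantile normalisation and 35% when each array was scaled to the same median instead, which moved the median over all features from 0.04 to -0.08.

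The targeted genes were examined first. Mapk9, on chromosome 11, read 9.95 and 10.06 at day 2 and 9.75 and 9.87 at day 4 in the wildtype, and 4.60, 5.01, 4.95 and 4.93 on the knockout arrays in the same order. This probe was detected on all 4 wildtype arrays and on 3 of the 4 knockout arrays. The groups lie far apart, with a difference of -5.03 ± 0.13 (standard error, n = 4 and 4; adjusted p = 4.18e-18, limma), and a second Mapk9 probe was detected on 4 wildtype and no knockout arrays (-3.08). Mapk8, on chromosome 14, read 5.17, 5.59, 6.02 and 5.48 in the wildtype and 5.99, 5.40, 5.92 and 5.95 in the knockout. These values overlap (0.25 ± 0.18, adjusted p = 0.287), and so do those of the other 2 Mapk8 probes past the filter (-0.09 and 0.11), of which the second was detected on 2 knockout arrays alone. Whether the Mapk8 probes lie inside the deleted part is not given in the sources used here, so they check the label for JNK1 neither way. The Mapk9 signal was far lower, which matches the label for JNK2, but it was not absent from every knockout array. Among the 11 tested kinases of the JNK cascade, 3 were higher and 4 lower, with a median difference of 0.08. Map3k1, an upstream kinase of the JNK and ERK cascades, was higher by 1.39, and Map3k3 (-1.05) and Map3k12 (-0.94), which also feed the JNK branch, were lower.

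Genes around the deleted loci were also examined, with their order taken from the RefSeq annotation of GRCm38.p6, because stretches of stem cell-derived chromosome often travel with a knockout allele. On each side of a locus the next 10 tested genes were taken. Around Mapk9 their starts lay between -942.1 and 1051 kb from its own, and 7 of 20 were higher and 3 lower. Around Mapk8 they lay between -1914 and 7529 kb, and 4 of 20 were higher and 9 lower. The largest difference near Mapk9 was that of Gfpt2, an enzyme of the hexosamine pathway, at -4.59, with detection on 4 wildtype and 2 knockout arrays. Near Mapk8 it was that of Arhgap22, a Rac inhibitor, which was at least 19.8-fold lower. Whether these differences come with the allele was not tested.

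Among the genes detected on all 8 arrays, the largest difference was that of Upp1, an enzyme of uridine breakdown, which read 11.95, 11.75, 11.73 and 11.62 in the wildtype and 5.20, 6.09, 6.01 and 5.46 in the knockout. Its groups lie more than 5 log2 units apart, with a difference of -6.07 ± 0.15, and 2 further Upp1 probes gave -5.35 and -5.49. Mmp2, the gelatinase that cleaves denatured collagen and basement membrane collagen, read 13.14, 13.06, 13.20 and 13.55 in the wildtype. Its knockout values of 7.63, 7.40, 7.57 and 7.51 gave a difference of -5.71 ± 0.09 (adjusted p = 3.71e-21, limma). Lower by 4 to 6 log2 units as well were Capg, an actin filament capping protein (-5.57), Tnfaip2, a gene induced by tumour necrosis factor (-5.42), the actin-associated adaptor Pdlim1 (-5.20), and the insulin-like growth factor binding proteins Igfbp5 (-5.02) and Igfbp6 (-4.44). The same range held the matrix gene Fbln2 (-4.85), the water channel Aqp1 (-4.72), the cell surface protein Nrn1 (-4.69), known from neurite growth, and the transmembrane protein Emb (-4.62).

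In the other direction, Cygb, the globin of fibroblast-like cells, read 12.09, 11.87, 12.34 and 11.98 in the knockout against 5.67, 5.89, 7.36 and 7.66 in the wildtype, a difference of 5.42 ± 0.20. Map2, a microtubule-associated protein best known from dendrites, read 10.53, 10.40, 10.46 and 10.22 against 5.11, 5.14, 5.04 and 5.07 (5.31 ± 0.11). In both genes every knockout array exceeded every wildtype array by more than 4 log2 units. Ogn, a small leucine-rich proteoglycan, was higher by 4.86, the matricellular Wnt target Ccn5 by 4.42, the surface antigen Psca by 4.20, the aldehyde dehydrogenase Aldh3a1 by 4.11, the vesicle fusion protein Stxbp2 by 4.11, the forkhead factor Foxq1 by 3.91, and the protease inhibitor Slpi by 3.58. A transcript with the name 1190005I06Rik was higher by 3.95. The rule for leading genes also took in Tomm22, a subunit of the mitochondrial import pore (-4.37), and Ppib, a chaperone of collagen folding in the endoplasmic reticulum (3.97). Each rests on one probe at that size: a second Tomm22 probe, detected on 4 wildtype and 1 knockout arrays, gave -0.87, and Ppib had no other probe past the filter.

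**Figure D1:**
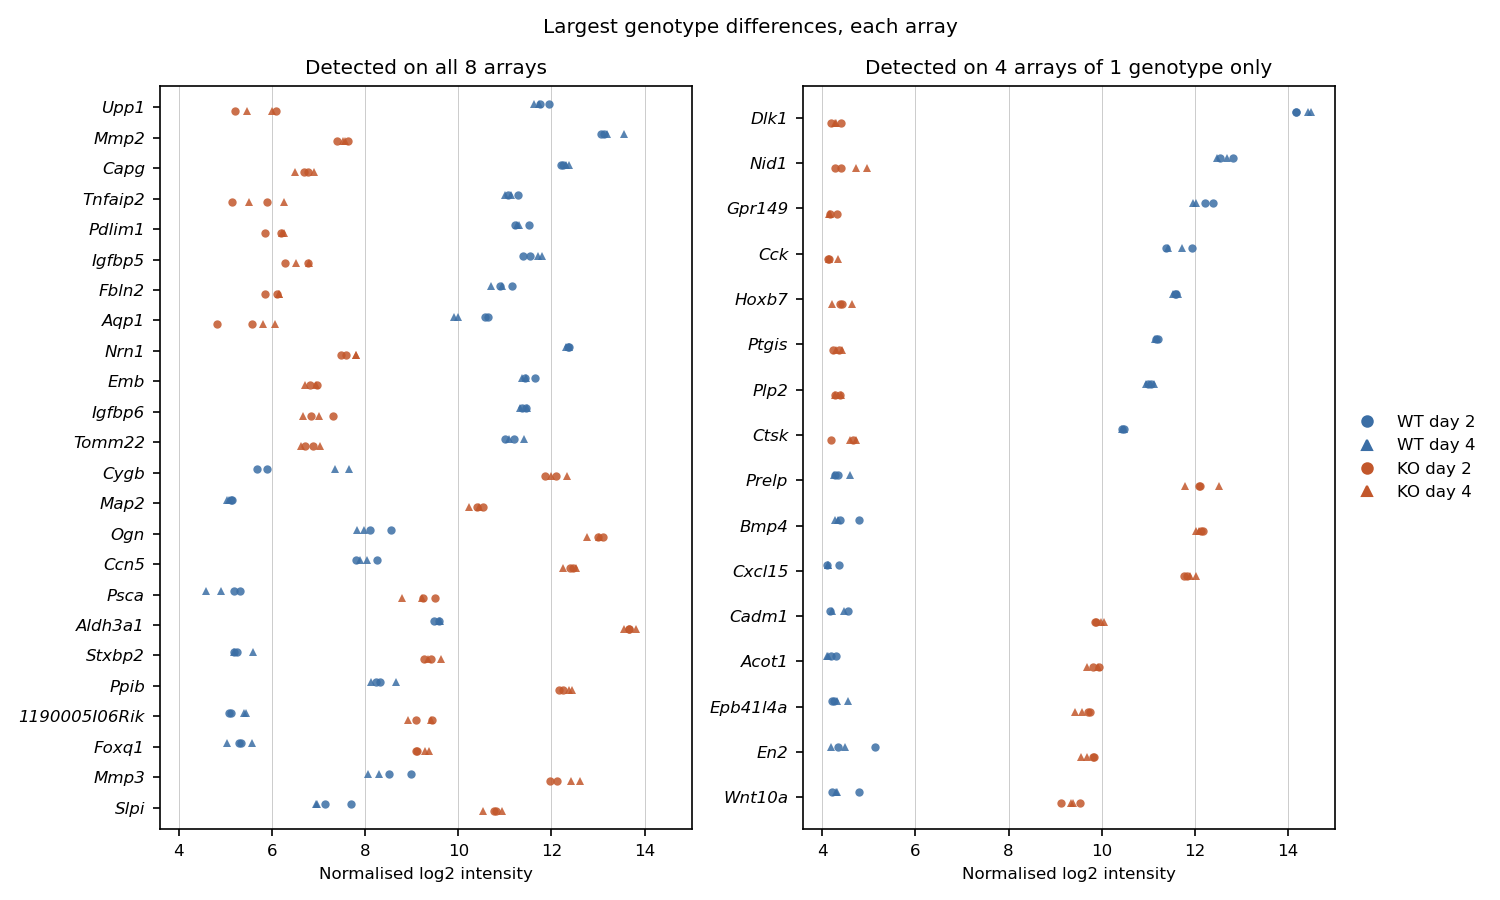
Normalised log2 intensity on each of the 8 arrays for the 12 genes with the largest differences in each direction, among genes detected on all 8 arrays (left), and for the 8 largest lower bounds each way, among genes detected on the 4 arrays of 1 genotype alone (right); points are arrays and their marks give genotype and day. Within each gene the wildtype and knockout points form separate groups. Wildtype Cygb read 5.67 and 5.89 at day 2 and 7.36 and 7.66 at day 4.

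Of the 14259 features, those detected on all 4 arrays of one genotype and on none of the other numbered 270 for the wildtype and 224 for the knockout. Their folds are lower bounds, taken against the lowest signal counted as detected. Dlk1, a membrane-bound inhibitor of Notch and of fat cell formation, read 14.16, 14.16, 14.43 and 14.50 in the wildtype and 4.19, 4.39, 4.29 and 4.28 in the knockout, and was at least 849-fold lower (adjusted p = 5.91e-25, limma). Nid1, the basement membrane linker nidogen, read 12.83, 12.54, 12.49 and 12.70 in the wildtype and between 4.28 and 4.96 in the knockout (at least 245-fold lower). The orphan receptor gene Gpr149 was at least 189-fold lower by its brightest probe. A second Gpr149 probe, detected on 4 wildtype and 2 knockout arrays, gave -0.99. The peptide hormone gene Cck was at least 131-fold lower, the homeobox gene Hoxb7 at least 127-fold and the prostacyclin synthase Ptgis at least 96.5-fold. The membrane protein Plp2 was at least 87.4-fold lower and the collagen-degrading cathepsin Ctsk at least 55.7-fold.

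Of the genes detected only in the knockout, Prelp, a proteoglycan that anchors basement membranes, read 12.10, 12.11, 12.51 and 11.80 there and between 4.26 and 4.60 in the wildtype (at least 184-fold higher). Bmp4, a secreted bone morphogenetic protein, read 12.14, 12.19, 12.10 and 12.02 in the knockout and 4.38, 4.78, 4.27 and 4.34 in the wildtype (at least 177-fold higher). Cxcl15, a chemokine known from mouse lung epithelium, read 11.82, 11.76, 11.89 and 12.02 against 4.10, 4.36, 4.13 and 4.14 (at least 154-fold higher). For all 3 the knockout arrays lay within 1 log2 unit of each other. The adhesion molecule Cadm1 (at least 40.4-fold), the acyl-CoA thioesterase Acot1 (37.7-fold), the membrane skeleton gene Epb41l4a (32.2-fold), the homeobox gene En2 (31.5-fold) and the ligand Wnt10a (25.9-fold) followed.

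The AP-1 family itself was uneven. Jun, the main nuclear substrate of JNK, read 10.40, 10.43, 10.32 and 10.19 in the wildtype and 6.49, 6.58, 6.71 and 6.51 in the knockout, so that the lowest wildtype array lay more than 3 log2 units above the highest knockout array (-3.76 ± 0.10, adjusted p = 1.28e-17, limma). Of the 13 tested AP-1 genes, 6 were lower and 3 higher, with a median of 0.04. The lower ones besides Jun were Fosl2 (-1.20), the small Maf protein gene Mafg (-0.79), Fosb (-0.76, detected on 3 wildtype and 1 knockout arrays), Jund (-0.58) and Atf7 (-0.57). Jdp2, a repressor that dimerises with Jun (1.30), Junb (0.29) and Atf2 (0.27) were higher; under median scaling Junb and Atf2 did not pass the test, nor did Junb with all 18 arrays fitted together (0.28). With each day fitted alone on its 4 arrays, Jund lost its call at day 2 (-0.53), Fosb (-0.30) and Junb (0.26) at day 4, and Atf2 on both days (0.25 and 0.28). The calls of Fosb and Atf2 also depend on single arrays. Fosb lost its call without wildtype day 2 replicate 1 (-0.62) or 2 (-0.71), knockout day 2 replicate 2 (-0.59) or knockout day 4 replicate 2 (-0.63), and Atf2 lost it without wildtype day 2 replicate 1 (0.24), knockout day 2 replicate 1 (0.25) or wildtype day 4 replicate 1 (0.24). Fos read 9.02, 9.42, 8.63 and 8.05 in the wildtype and 8.86, 8.70, 8.95 and 8.77 in the knockout. The knockout values lie inside the wildtype range, and the difference of 0.04 had an adjusted p of 0.875 (limma). The other immediate early genes were split, with 3 of 12 higher and 3 lower. Egr2, a zinc finger factor, was higher (2.82), the growth factor-induced Ier3 was lower (-1.13), Egr3 was lower (-0.81) and Srf, the factor that drives many of these genes, was higher (0.76).

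The Jun promoter is shown because Jun is known to act on its own gene through the AP-1-like site in it, and those of Mmp3 and Mmp13 because both are textbook AP-1 targets that were higher in the knockout. Each line gives the 250 bases before the start of transcription, 5′ to 3′ on the gene's strand, from RefSeq on GRCm38.p6, with the letters that match TGANTCA, TGACGTCA, TGACATCA or TGATGTCA in capitals. The Jun stretch is chr4:95052223-95052472 on the minus strand and its match begins at position -45. The Mmp3 stretch is chr9:7445572-7445821 on the plus strand with a match at -46, and that of Mmp13 is chr9:7272264-7272513 on the plus strand with a match at -35.
Jun: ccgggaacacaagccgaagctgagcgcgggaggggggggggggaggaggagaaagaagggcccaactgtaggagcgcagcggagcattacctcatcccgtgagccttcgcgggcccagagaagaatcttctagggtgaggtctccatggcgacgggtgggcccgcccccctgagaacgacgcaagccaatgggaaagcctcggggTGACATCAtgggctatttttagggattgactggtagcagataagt
Mmp3: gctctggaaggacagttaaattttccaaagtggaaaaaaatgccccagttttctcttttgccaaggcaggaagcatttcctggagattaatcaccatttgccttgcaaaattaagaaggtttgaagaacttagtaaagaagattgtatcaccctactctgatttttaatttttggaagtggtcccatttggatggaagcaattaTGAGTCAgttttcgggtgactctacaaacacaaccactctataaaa
Mmp13: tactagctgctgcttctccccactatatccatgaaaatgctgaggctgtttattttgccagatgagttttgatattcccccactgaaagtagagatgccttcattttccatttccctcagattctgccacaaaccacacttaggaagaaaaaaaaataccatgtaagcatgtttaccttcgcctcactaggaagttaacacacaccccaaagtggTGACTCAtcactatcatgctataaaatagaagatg

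Across all tested genes the motifs were described by their share of the RefSeq promoter windows, each of 300 bases from 250 before to 50 after a start, with both strands searched. The canonical AP-1 letters TGANTCA occurred in 5.83% of the 11375 windows of tested genes and in 7.81% of all 32851 windows. The share was 5.07% for genes higher in the knockout and 6.72% for genes lower, and for genes that differed at least 4-fold it was 8.57% among the higher (18 of 210 windows) and 11.4% among the lower (36 of 317). The cyclic AMP response element TGACGTCA, to which Atf and Creb proteins bind, occurred in 2.84% of the windows of tested genes, in 3.81% of those at least 4-fold higher (8 windows) and 0.946% of those at least 4-fold lower (3 windows). The letters of the Jun promoter, TGACATCA or its complement, occurred in 1.9% of the windows of tested genes. These shares are descriptions; a window with the letters need not be bound.

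The dual-specificity phosphatases, which remove the activating phosphates from MAP kinases and are themselves induced by MAP kinase signalling, were lower as a group. Of 12 tested, 10 were lower and 1 higher, with a median of -1.16. Dusp2, which acts in the nucleus on ERK and p38, read 8.84, 9.15, 9.06 and 9.09 in the wildtype and 5.26, 4.81, 5.83 and 6.04 in the knockout (-3.55 ± 0.16), with detection on 3 of the 4 knockout arrays. Dusp1 read 11.37, 11.68, 10.97 and 10.98 against 9.39, 9.22, 9.05 and 8.89 (-2.11), and the ERK-specific Dusp6 read 12.17, 12.13, 11.97 and 12.10 against 9.87, 9.99, 10.28 and 10.21 (-2.01 ± 0.09). In all 3 genes the genotypes did not overlap. Dusp18 was lower as well (-1.40, 1 knockout array detected). Dusp10, which prefers JNK and p38, was the one member that was higher (0.61, adjusted p = 0.00201, limma).

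Fibroblast growth factor receptors and the feedback genes of their ERK branch showed the same split, with 10 of 11 lower, 1 higher and a median of -1.52. Etv5, an Ets factor induced by FGF signalling, read 8.15, 8.17, 8.33 and 8.34 in the wildtype and 5.10, 5.19, 5.38 and 5.55 in the knockout (-2.94). Its relative Etv4 (-2.74) and the FGF receptor partner Flrt2 (-2.30) were lower too. Fgfr2, whose splice forms bind the FGFs of epithelial and mesenchymal layers, was the exception and read 10.01, 10.03, 10.23 and 10.02 in the knockout against 7.66, 7.54, 7.35 and 7.46 in the wildtype (2.57). The arrays do not tell its splice forms apart here. Under median scaling both groups kept their counts, with 10 lower and 1 higher in each.

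**Figure D2:**
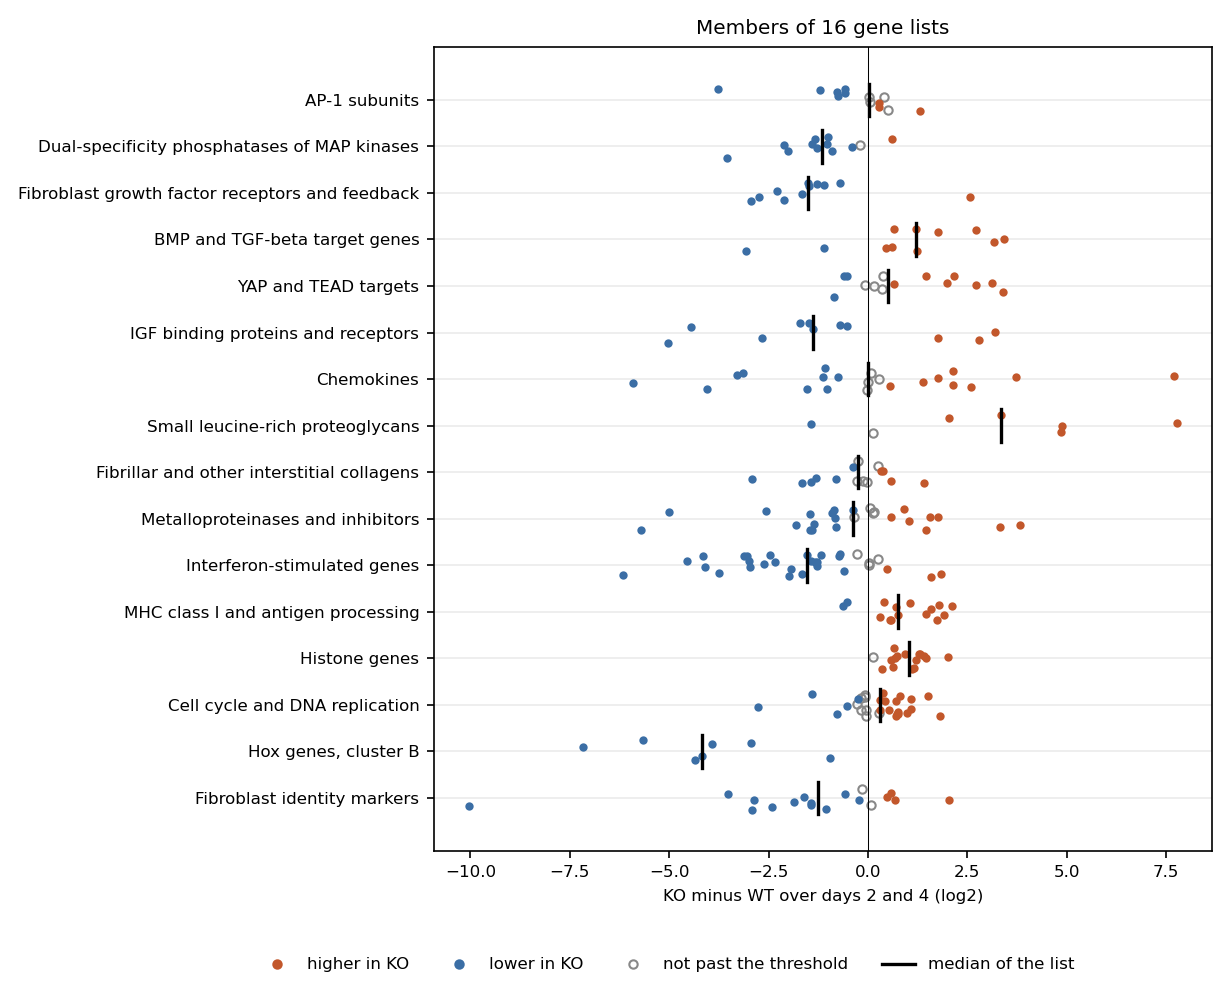
Genotype difference (knockout minus wildtype, log2) of each tested member of 16 gene groups; each point is a gene, filled where it passed an adjusted p of 0.05, and the bar is the median of the group. Dual-specificity phosphatases, FGF receptors and feedback genes, interferon-stimulated genes and Hox B genes lie mostly below 0, with medians of -1.16, -1.52, -1.53 and -4.18, and histone genes and BMP and TGF-beta targets mostly above it, with medians of 1.02 and 1.21.

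Secreted factors that reach keratinocytes were split. Of 17 tested growth factors known to act on keratinocytes, 5 were higher and 5 lower, with a median of 0.07. Fgf7, the keratinocyte growth factor, read 12.70, 12.20, 11.99 and 12.08 in the wildtype and 12.08, 12.06, 12.26 and 12.18 in the knockout; the groups overlap and the difference of -0.10 had an adjusted p of 0.47 (limma), although it passed the test at -0.27 under median scaling. Its relative Fgf10, which binds the same receptor, read 9.38, 9.06, 9.16 and 9.28 against 6.54, 6.23, 6.64 and 6.48 (-2.75). The genotypes of Fgf10 are clearly apart, as are those of the heparin-binding factor Ptn (-3.62) and the EGF receptor ligand Btc (-2.69). Igf2 was higher by 2.80, with detection on 2 wildtype arrays and all knockout arrays. All 11 tested genes of insulin-like growth factors, their binding proteins and receptors passed the test, 3 higher and 8 lower, with a median of -1.39. Besides Igfbp5 and Igfbp6, Igfbp4 was lower (-2.66), while Igfbp2 was at least 7.77-fold higher.

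Among BMP and TGF-beta ligands and their extracellular inhibitors, 8 of 17 were higher and 6 lower, with a median of 0.24. Next to Bmp4, the joint-forming ligand Gdf5 was at least 2.57-fold higher, and the BMP antagonist Grem1 (-2.46) and the procollagen protease Bmp1 (-1.56) were lower. Known targets of these ligands moved more evenly: all 11 tested passed, 9 higher and 2 lower, with a median of 1.21, and under median scaling 8 were higher and 2 lower. The BMP-induced homeobox gene Msx1 was at least 8.63-fold higher and Hey1 at least 8.28-fold. Ccn2, a matricellular TGF-beta target, read 12.55, 12.46, 12.74 and 12.42 against 10.06, 10.23, 9.56 and 9.49 (2.71), and every knockout array was the higher. Tgfbi, a TGF-beta-induced matrix protein, went the other way (-3.08).

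Of the 11 tested Wnt ligands and secreted inhibitors, 3 were higher and 4 lower (2 lower without wildtype day 2 replicate 2 or knockout day 2 replicate 2), with a median of -0.25. Wnt6 read 10.85, 10.58, 10.67 and 10.49 in the knockout and between 4.54 and 4.82 in the wildtype, where 2 arrays detected it (5.95). Wnt10a was given above, and Wnt4 was at least 7.32-fold higher. Dkk3, a secreted protein of the Dickkopf family, was lower (-5.08) and detected on 1 knockout array. Axon guidance ligands, which also steer vessels and epithelia, were 6 higher and 5 lower of 15, with a median of 0.18. Sema3f was higher by 4.71 (1 wildtype array detected it) and Sema5a was lower (-3.48, 3 knockout arrays detected). Sema7a was at least 12.4-fold lower and Slit3 at least 6.5-fold by its brightest probe. Other probes differed: Sema5a probes detected on 4 wildtype and 4 knockout arrays gave -3.03 and 0.14. Further Slit3 probes gave -1.47 (4 wildtype and 1 knockout arrays detected) and 0.18 (2 knockout arrays alone).

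Chemokines moved in both directions, with 8 of 21 higher, 9 lower and a median of -0.01. Apart from Cxcl15, the keratinocyte-associated chemokine Ccl27a was at least 11.6-fold higher. Ccl5, an attractant of T cells and monocytes, was at least 50.1-fold lower and Cxcl13, an attractant of B cells, at least 16.1-fold. Of 18 other cytokines, 5 were higher and 7 lower, with a median of -0.19. The osteoclast factor Tnfsf11 was lower (-4.69, 1 knockout array detected), the IL-6 family member Il11 was lower (-2.75), and the interleukin-1 receptor antagonist Il1rn and the alarmin Il33 were higher by 2.81 and 2.31. Among NF-kB subunits and feedback genes 5 of 16 were higher and 9 lower, with a median of -0.28; after Tnfaip2, the largest were Nfkbiz (-2.11), Birc2 (1.74) and Bcl3 (-1.36).

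Matrix genes moved in both directions. Of 25 tested metalloproteinases and inhibitors, 8 were higher and 13 lower, with a median of -0.37. The stromelysin Mmp3 read 12.11, 11.97, 12.62 and 12.42 in the knockout and 8.99, 8.51, 8.29 and 8.06 in the wildtype (3.82 ± 0.15, adjusted p = 1.06e-14, limma). The collagenase Mmp13 read 10.48, 10.26, 11.24 and 10.73 against 8.06, 7.46, 6.99 and 6.96 (3.31 ± 0.20). In both, all knockout arrays were higher by at least 2 log2 units, whereas Mmp2 and the membrane-bound Mmp23 (-5.01, 1 knockout array detected) were lower. Small leucine-rich proteoglycans, which bind collagen fibrils, were higher in 5 of 7 and lower in 1. With Prelp and Ogn, Omd was at least 25.3-fold and Fmod at least 8.65-fold higher, while Dcn was the lower one (-1.43). The median of the group was 3.35, or 3.11 with genes undetected in one genotype set to their bounds.

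Elastic fibre and matrix glycoproteins were lower in 11 of 20 and higher in 7, with a median of -0.47. Fbln2 was given above, Fbln1 (-3.42) and the collagen- and elastin-crosslinking enzyme Lox (-3.29) were lower, while the microfibril-associated Mfap4 was higher by 3.90, with 1 wildtype array detected. Of 14 basement membrane genes, 5 were higher and 6 lower, with a median of -0.18. Nid2 followed Nid1 (-2.95, 3 knockout arrays detected), and the laminin chain Lama5 was higher by 2.83 (1 wildtype array detected). Interstitial collagens were 4 higher and 6 lower of 15. Col1a2 was lower (-2.91) and detected on 1 of the 4 knockout arrays. Col1a1, which pairs with it in type I collagen and was named after its values were seen, was higher (0.59) with overlapping groups, and did not pass the test at day 4 alone (0.60).

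Interferon-stimulated genes, which encode antiviral proteins, were lower in 24 of 31 and higher in 3, with a median of -1.53. Usp18, which removes the ubiquitin-like Isg15 from proteins, read 11.63, 11.33, 10.74 and 10.63 in the wildtype and 5.37, 4.61, 4.59 and 5.14 in the knockout, where 2 arrays detected it (-6.16). Isg15 itself read 12.48, 11.91, 11.72 and 11.58 against 8.03, 7.86, 7.44 and 7.79 (-4.14). No array of the knockout reached the wildtype level of either. Ifit3 was lower (-4.10), and Trim25 was at least 16.8-fold lower. Class I MHC and antigen-processing genes, which interferon also induces, went mostly the opposite way, with 13 of 15 higher and 2 lower and a median of 0.76 (10 higher and 2 lower under median scaling, and 8 higher when all 18 arrays were fitted together). The immunoproteasome subunit Psmb8 read 9.14, 8.87, 8.65 and 8.99 in the knockout and 6.76, 6.79, 6.75 and 6.90 in the wildtype (2.11). The peptide transporter gene Tap2 was higher by 1.91, the heavy chain H2-K1 by 1.78 and the invariant chain Cd74 by 1.73 (2 wildtype arrays detected). Tap1, of the same list, was lower and its lowest member (-0.63).

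Cell cycle genes were 16 higher and 5 lower of 29, with a median of 0.31, but 12 and 12 under median scaling, so that their balance has no settled direction. Ccnd2, a D-type cyclin (-2.76), Plk1 and Aurka, kinases of mitosis (1.82 and 1.51), and Ccnd3 (-1.41) differed most. Histone genes were higher in 15 of 16 with a median of 1.02, and in 14 under median scaling. H2ax led with 2.01, followed by H1f2 (1.46), H2bc12 (1.42) and H2bc21 (1.31). Inhibitors of cyclin-dependent kinases and p53 targets were 6 higher and 5 lower of 20: the senescence-associated inhibitor Cdkn2b (-3.90), the p21 gene Cdkn1a (-2.60) and Gadd45a (-2.37) were lower, and the imprinted Cdkn1c was higher (1.82).

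Positional identity genes differed between the cultures. All 7 tested Hox B genes were lower, with a median of -4.18. Hoxb7 read 11.58, 11.59, 11.53 and 11.63 in the wildtype and 4.38, 4.43, 4.21 and 4.65 in the knockout. Hoxb5 was at least 39.6-fold lower and Hoxb6 at least 17.1-fold, and Hoxb2 was lower (-4.34) with 1 knockout array detected. Of the Hox A genes 3 of 6 were lower, led by Hoxa5 (-3.04), and of the Hox C genes 2 of 5, led by Hoxc6 (-7.65, 1 knockout array detected) and Hoxc9 (-2.89). Of the 3 tested Hox D genes limma called 0, and 0 had an unadjusted p under 0.05. Of 49 other patterning factors 15 were higher and 18 lower, with a median of -0.03. With En2, the Iroquois homeobox gene Irx2 was at least 18.4-fold higher, and the LIM homeobox gene Isl1 was lower (-3.48). These genes mark the body region from which a fibroblast came; the embryonic region each culture was taken from is not given in the sources used here.

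The label of fibroblast was set against its markers. All 19 fibroblast genes on the array were detected on some array, 17 on every wildtype array and 12 on every knockout array, and 12 of the 18 tested were lower and 4 higher. Their summed intensity ran from 50427 to 57658 in the wildtype and from 19805 to 22646 in the knockout. The sum includes Dlk1, which read 14.16 to 14.50 in the wildtype and 4.19 to 4.39 in the knockout. It also includes Dcn, the brightest gene of the list, which was lower (-1.43). The sum weighs bright genes most and is not a level shared by all members. Vim, the mesenchymal intermediate filament, read 12.77, 12.74, 12.47 and 12.33 in the knockout and 12.09, 12.30, 11.99 and 12.03 in the wildtype (0.47). Pdpn, a glycoprotein of papillary and activated fibroblasts, was lower (-3.52), Col1a2 and Dlk1 were given above, and Cd34 was at least 6.17-fold lower. The highest member was Lum (2.03), set against wildtype signals not above background. In bulk RNA, fewer cells of a type and less RNA per cell cannot be told apart.

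Markers of other cell types were examined in the same way. Of 21 keratinocyte markers 11 were detected on no array, among them Krt5 and Krt17, and their summed level was 1418 to 1485 in the wildtype and 1089 to 1267 in the knockout. Of 11 endothelial markers 7 were on no array, Pecam1 and Cdh5 among them (715 to 981 and 927 to 1130). Of 11 macrophage and blood genes 5 were on no array, Adgre1 and Lyz2 among them. The list's sum was 1447 to 1874 in the wildtype and 445 to 516 in the knockout, and its brightest gene was Cd14. Of 5 tested, 2 were lower and 0 higher. The sum included the globin gene Hba-a1, at least 30.5-fold lower in the knockout. Neural genes summed to 605 to 652 and 2080 to 2590, with 4 of 8 tested higher and 2 lower. Map2, Ncam1 (1.37), Nes (0.99) and Stmn2 (at least 2.76-fold) were higher, Sox2 (at least 2.60-fold) and Gap43 (at least 2.01-fold) lower, and Sox10 and Nefl on no array. Cartilage and bone genes, of which 3 of 11 were on no array, summed to 3208 to 4223 and 3142 to 3280. Of 11 simple epithelial markers 4 were on no array, Epcam among them, and their sum of 595 to 980 in the wildtype and 265 to 323 in the knockout went with Krt19 (-4.80). Skeletal muscle genes summed to 260 to 279 and 285 to 347, with 7 of 12 on no array. The part of these levels in the genotype difference was not tested. The intestinal homeobox gene Cdx2 read 9.42, 9.61, 9.53 and 9.50 in the knockout and between 4.38 and 4.88 in the wildtype, where 1 array detected it (4.97). Smooth muscle contractile genes, a trait of myofibroblasts, were 6 higher and 3 lower of 10, with a median of 0.82. They ran from Actg2 (-2.20) to Acta2 (2.94), so the 2 ends of the list went opposite ways. Acta2, smooth muscle actin, read 14.28, 14.28, 14.48 and 14.36 in the knockout and 11.56, 11.79, 11.24 and 11.05 in the wildtype (2.94), with no overlap, and 3 further Acta2 probes detected on all 8 arrays gave 3.57, 3.85 and 3.91. Myh11, Cnn1 and Myocd, of the same list, were detected on no array.

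Most of the metabolic groups here leaned lower, while the balance of NRF2 and glutathione genes moved with the scaling. Of 16 adipogenic and lipid-handling genes 11 were lower and 2 higher, with a median of -0.72. The lipoprotein lipase gene Lpl was lower (-4.34, 3 knockout arrays detected), as were the adipogenic receptor Pparg (-3.94) and Angptl4, an inhibitor of that lipase (-3.26). Of 7 prostaglandin genes 4 were lower. With Ptgis, the prostaglandin E synthase Ptges (-5.74) and the prostaglandin transporter Slco2a1 (-4.00) were lower, each detected on 1 knockout array. Hypoxia-response and glycolytic genes were lower in 12 of 22 and higher in 1, by smaller steps (median -0.35). Of 31 genes of NRF2 and glutathione defence 17 were higher and 8 lower, and 10 and 8 under median scaling. Aldh3a1 was at the upper end, followed by Gsta1 (3.41, 3 wildtype arrays detected), and at the lower end Gpx7 was at least 23.4-fold lower and the quinone reductase Nqo1 was lower (-4.36), reading 10.73, 10.87, 10.57 and 10.68 in the wildtype and 6.44, 6.22, 6.17 and 6.56 in the knockout.

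Some large housekeeping families gave small differences whose balance of higher and lower calls moved with the scaling; in parentheses are the counts under median scaling. Cytosolic ribosomal protein genes were 23 higher and 1 lower of 50 with a median of 0.12 (8 and 2 under median scaling, and 15 higher without knockout day 4 replicate 2). Mitochondrial ribosomal protein genes were 34 higher and 13 lower of 72 (19 and 22), complex I subunits 16 and 5 of 33 (10 and 8), proteasome subunits 18 and 4 of 33 (9 and 7), sterol synthesis genes 10 and 1 of 17 (7 and 6), and genes named Zfp 65 and 17 of 208 (36 and 39). Among listed genes with a 95% interval within 0.5 of 0, the most precisely measured were Tubb5 (0.16), Tuba1b (-0.09), Anxa2 (0.17), Tpi1 (-0.33) and Mif (-0.31). All but Tuba1b passed the test. These are among the brightest probes, and a dimmer Anxa2 probe, detected on 2 wildtype and 4 knockout arrays, gave 1.29.

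The calls were unevenly spread over the chromosomes. Over 10945 genes with a position in the same annotation, 27.6% were higher and 25.6% lower, with a median of 0.03. On chromosome 8 the shares were 13.4% and 46.2% with a median of -0.24, on chromosome 6 12.9% and 43.5% (-0.22), on chromosome 15 16.1% and 42.5% (-0.21), and on chromosome 16 15.1% and 40.8% (-0.19). In the opposite direction stood chromosome 9 with 44% higher and 15.1% lower (0.24), chromosome 2 with 39.8% and 15.4% (0.21) and chromosome 1 with 38.5% and 17% (0.18). The medians at day 2 and day 4, which share no array, were -0.27 and -0.26 for chromosome 8 and 0.25 and 0.28 for chromosome 9. At day 0 they were -0.31 and 0.22 and at day 6 -0.29 and 0.27. Median scaling moved the median of all these genes to -0.12, and relative to it chromosome 8 lay at -0.30 and chromosome 9 at 0.20. No test was made of chromosomes, whose genes are not independent, and DNA copy number was not measured.

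**Figure D3:**
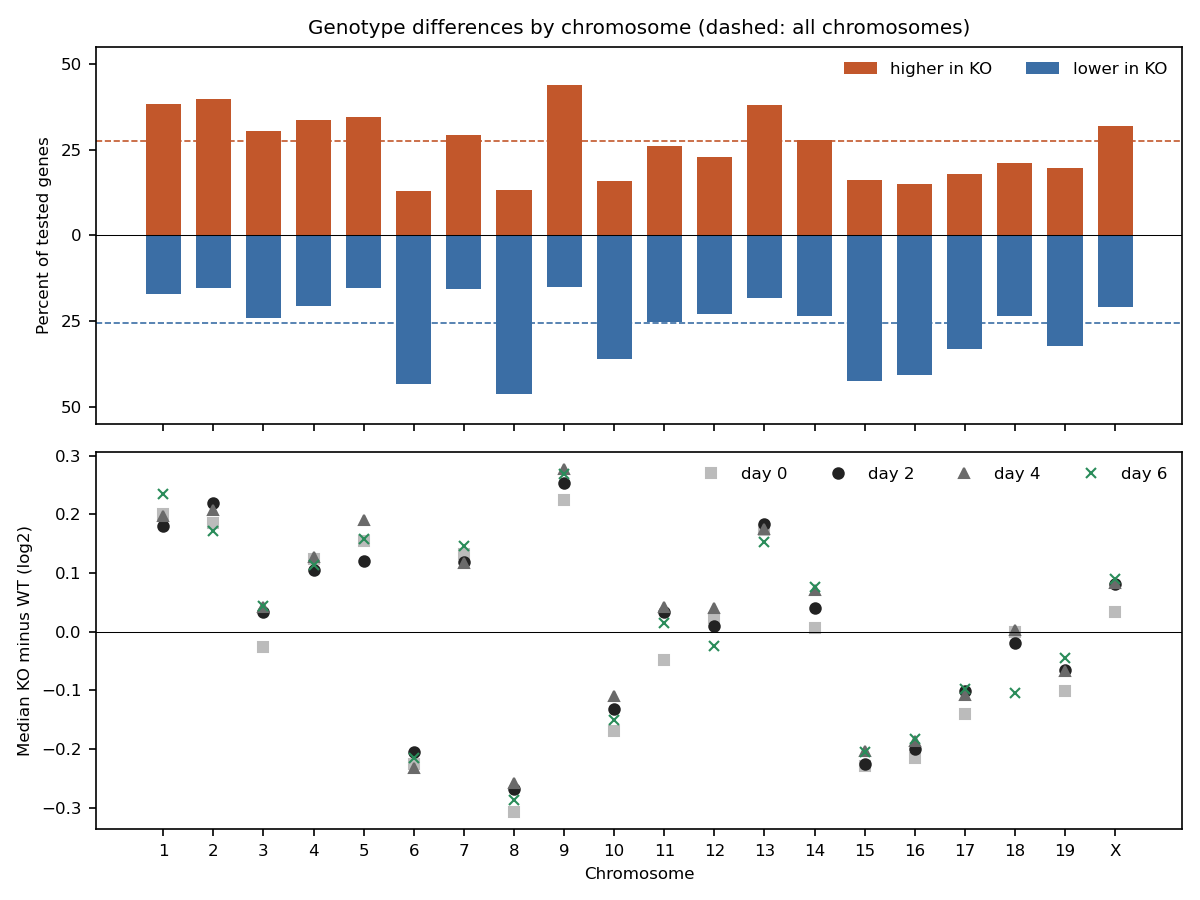
By chromosome, the upper panel gives the percent of tested genes higher (bars up) and lower (bars down) in the knockout, with the shares over all genes as dashed lines, and the lower panel the median genotype difference (knockout minus wildtype, log2) at days 0, 2, 4 and 6. Chromosomes 6, 8, 15 and 16 have more lower than higher genes and chromosomes 1, 2 and 9 more higher than lower, and the medians of a chromosome lie close together on the 4 days.

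The genotype difference was then taken on each day. At day 2 limma called 5651 features (39.6%) and at day 4 5457 (38.3%). Both days called 4465 features in the same direction and 7 in opposite directions, 1179 were called at day 2 alone and 985 at day 4 alone. The days share no array, but the 2 tests share one estimate of the spread, so their calls are not independent. With each day fitted alone on its 4 arrays, limma called 6104 features at day 2 and 4726 at day 4. The test of the change itself called 9 features (0.0631%), 3 higher (0.021%) and 6 lower (0.0421%), of which 3 carry a gene symbol, and 868 had an unadjusted p under 0.05. The difference of Cygb shrank from 6.20 at day 2 to 4.65 at day 4 (-1.55 ± 0.21, adjusted p = 0.00742, limma) with the rise of its wildtype level. Igfbp4 read 11.18, 11.08, 11.85 and 11.85 in the wildtype and 9.05, 8.89, 8.65 and 8.70 in the knockout, so its difference widened from -2.16 to -3.17 (-1.01 ± 0.16, adjusted p = 0.0152). Cldn15, a claudin of tight junctions, read 8.87, 9.11, 10.03 and 9.95 against 5.92, 5.84, 5.60 and 5.63, and its difference widened from -3.11 to -4.38 (-1.27 ± 0.22, adjusted p = 0.0343). These calls are fragile: without wildtype day 2 replicate 1, without wildtype day 2 replicate 2 or without wildtype day 4 replicate 2, none remained, without knockout day 2 replicate 1 or wildtype day 4 replicate 1 there were 2, without knockout day 4 replicate 1 14, and without knockout day 4 replicate 2 there were 74.

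**Figure D4:**
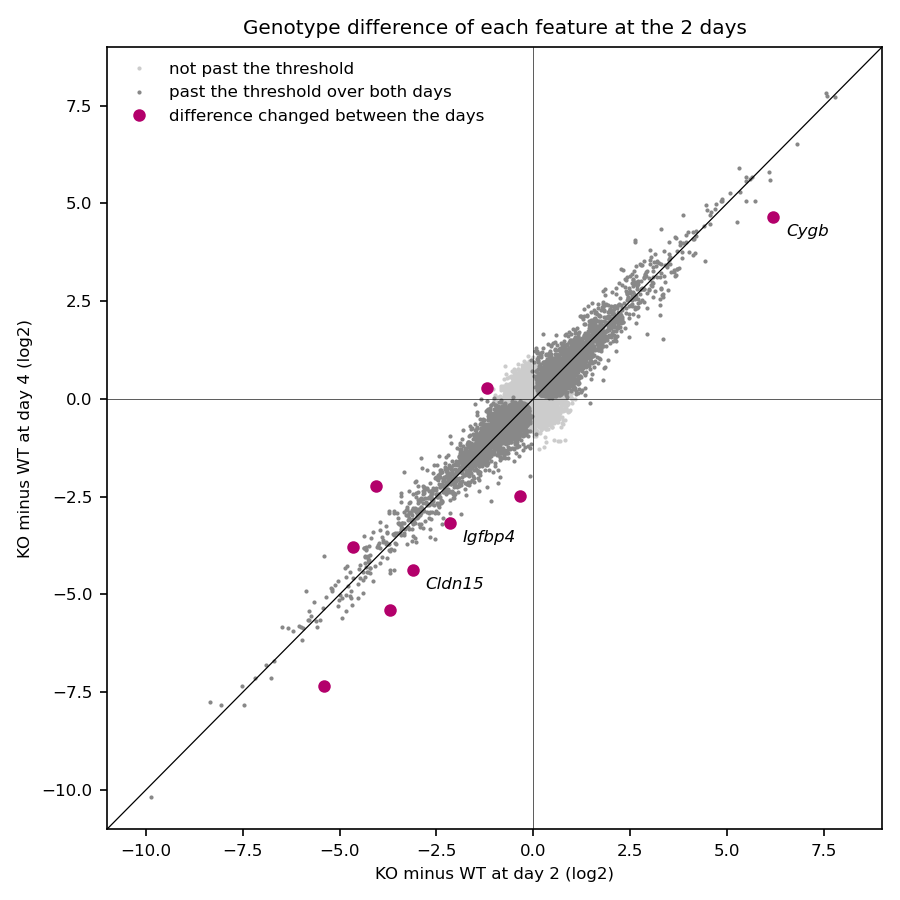
Genotype difference (knockout minus wildtype, log2) at day 2 on the horizontal axis and at day 4 on the vertical axis; each point is a feature, the line marks equal values, and the large points are the 9 features whose change between the days passed the test. Most features follow the line, and Cygb (6.20 and 4.65), Igfbp4 (-2.16 and -3.17) and Cldn15 (-3.11 and -4.38) are the 3 of the 9 with a gene symbol.

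The arrays of days 0 and 6 give the same contrast in other inserts. Before co-culture (day 0), with 1 array of each genotype and hence no test, 84.6% of the 7051 features had the sign they had at days 2 and 4, and at day 6 97.8%. Of the 673 features with at least a 4-fold difference these shares were 95.7% and 100%. Among 39 genes at least 4-fold apart at days 2 and 4 but within 0.5 of 0 at day 0, 18 were detected on neither day 0 array. Named after their values were seen, Lbp, the binding protein of bacterial lipopolysaccharide, was at least 17.1-fold higher in the knockout at days 2 and 4 and Fmod at least 8.65-fold, while Cxcl13 was at least 16.1-fold lower and the antiviral gene Mx2 at least 8.08-fold. All 4 were detected on neither day 0 array, so no difference could be measured there, and the lone day 0 arrays carry no error. The test of day 6 against days 2 and 4 called 7 features (0.0491%), and 958 had an unadjusted p under 0.05. In all 7 the knockout minus wildtype difference was higher at day 6, which includes negative differences that shrank. For Dusp2 the difference was -3.96 at day 2, -3.14 at day 4 and -2.09 at day 6 (1.52 ± 0.24, adjusted p = 0.0408, limma), and for Foxq1 3.80, 4.02 and 5.26 (1.29 ± 0.22, adjusted p = 0.0408), although no wildtype array of day 6 detected Foxq1. Most day 6 arrays were assigned to a second processing set from the kind of their detection p-values, as no label names one. Their mean intensities were higher. The inferred set entered the fit as a block. Without that block, under median scaling, or within the first set alone, where day 6 has 1 array of each genotype, 0 features were called. Leaving out single arrays gave 0 to 4 calls, except for 48 without day 6 replicate 1 of either genotype.

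**Figure D5:**
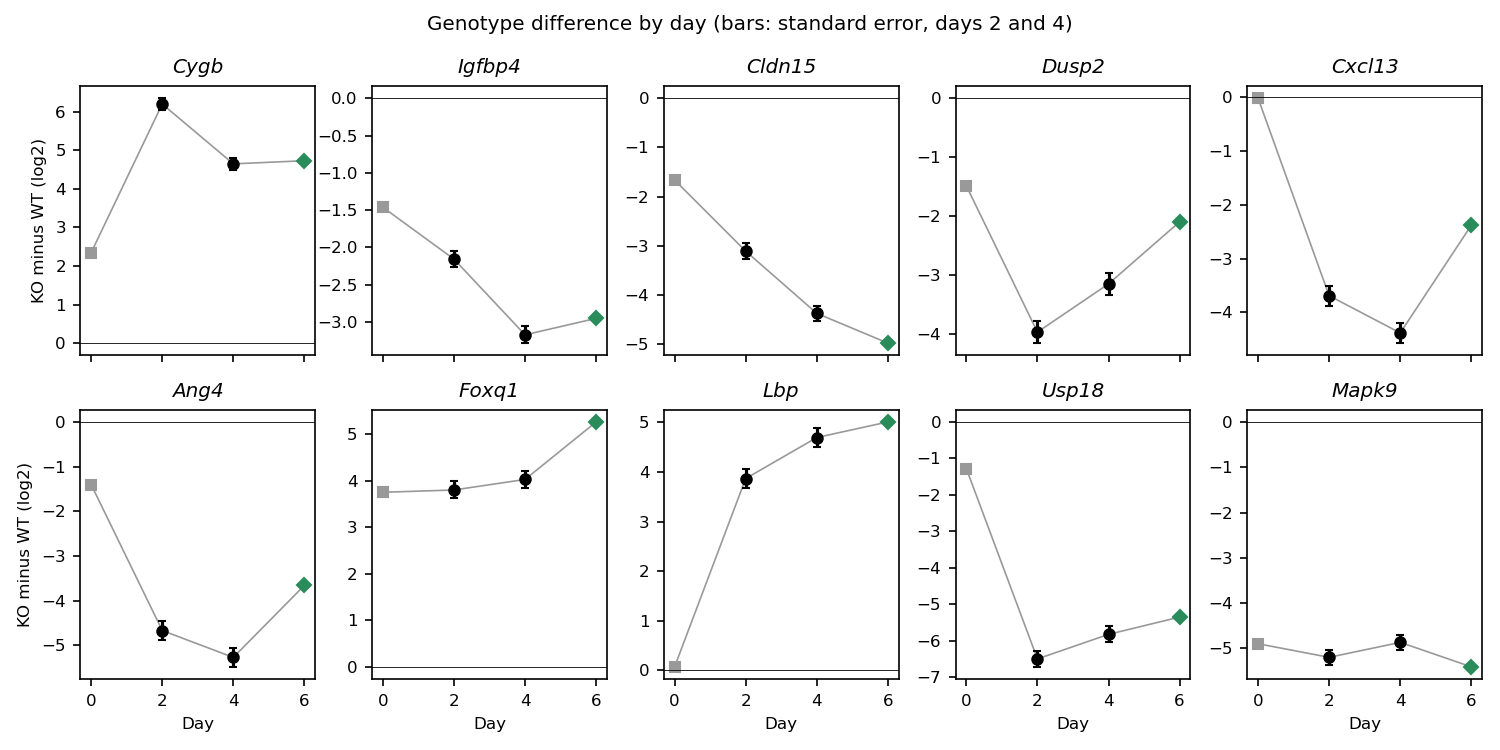
Genotype difference (knockout minus wildtype, log2) at days 0, 2, 4 and 6 for 10 genes; points are differences of group means, bars at days 2 and 4 are standard errors, day 6 (green diamonds) has no bar, and day 0 (grey squares) rests on 1 array of each genotype. Lbp and Cxcl13 were detected on neither day 0 array, Lbp on no wildtype array and Ang4 on no knockout array of any day, and Cxcl13 on no knockout array of days 2 and 4, so that these points include signals not above background. Mapk9 is far below 0 on all 4 days, and the difference of Dusp2 moves from -3.96 at day 2 to -2.09 at day 6.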

How the data were processed

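Expression was measured in 18 samples on single-colour Illumina bead arrays, and the 8 arrays of days 2 and 4 carry the comparison. The authors deposited bead intensity per probe, not normalised between arrays, and a detection p-value per probe and array, per the file headers; scanner, software and background treatment are not given in the sources used here. The deposited detection p-values were of 2 kinds, and those of day 6 replicates 2 to 4 were converted to the 1-sided kind. The processing set was inferred from this kind alone. A second deposited table held log2 values that lay within 0.00500 of the log2 quantile-normalised intensities and served as an alternative.

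Intensities of the 8 arrays were corrected by normexp on the detection p-values with an offset of 16, quantile-normalised and put on the log2 scale (neqc in limma 3.58.1, R 4.3.3). Of 45121 probes, 34763 had 1 gene symbol, 18 had several and 10340 none, per the platform annotation. A probe was kept if 2 or more of the 8 arrays gave it a detection p-value under 0.01 (20489 probes), and the probe with the highest mean stood for its gene. Among 4229 genes with several probes past the filter, 94 had called probes of opposite sign. Linear models with day as a block used eBayes with an intensity trend and Benjamini-Hochberg adjustment over 14259 features, with a threshold of 0.05. The change between days was an interaction term, and day 6 was set against days 2 and 4 in a fit of all 18 arrays with the processing set as a block. Lower bounds replace the values of the undetected genotype, on each array, by the higher of the dimmest detected signal and the probe's own signal. The procedures were tested on simulated data.

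The members and gene lists were chosen with earlier results of these data known. Named were the 12 largest differences each way among genes detected on all 8 arrays with groups apart, the 8 largest bounds each way, up to 8 genes of each test of change, up to 4 called members of each list with up to 2 defining ones, the JNK and AP-1 genes, 5 near 0, and the largest difference near Mapk8 and near Mapk9. Vim, Col1a1 and the genes close at day 0 stand outside this rule. Alternatives covered normalisation, background, dim-probe filters, the intensity trend, array weights, probes, blocks, days and single arrays. The test against a minimum difference, the crossed pairing and the chromosome values by day were chosen after seeing the data. Promoter stretches came from RefSeq on GRCm38.p6.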

Additional observations from a re-analysis of the deposited data

Results flagged for a closer look

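The genotype difference changed between day 2 and day 4 by limma's test of the change itself in 3 genes with a symbol. The day 6 difference is given beside it over all day 6 arrays and, in the first processing set alone, on 1 array of each genotype. That of Cygb was 6.20 at day 2 and 4.65 at day 4 (day 4 minus day 2 -1.55, adjusted p = 0.00742), and 4.73 at day 6 (4.52 in the first set). That of Igfbp4 was -2.16 and -3.17 (-1.01, adjusted p = 0.0152), and -2.95 at day 6 (-3.33 in the first set). That of Cldn15 was -3.11 and -4.38 (-1.27, adjusted p = 0.0343). Its day 6 value of -4.98 lay beyond day 4, but in the first set it was -3.13, close to day 2.

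The difference at day 6 departed from that of days 2 and 4 in 7 genes by limma's test, all upwards. Dusp2, detected on all day 6 arrays and on 3 knockout arrays before, gave 1.52 (adjusted p = 0.0408), with -2.03 at day 6 in the first set. Foxq1 gave 1.29 (adjusted p = 0.0408), with 4.88 at day 6 in the first set and no wildtype array of day 6 detecting it. By the probe that stood for each, the other 5 genes were detected on 0 knockout arrays at days 2 and 4. The fitted change of these genes is set against signals not above background, and its size is not a measured one. They were the chemokine gene Cxcl13 (1.92, adjusted p = 0.0408), Ang4, of the angiogenin family (1.65, adjusted p = 0.0408), Crabp1, a retinoic acid-binding protein (1.81, adjusted p = 0.0408), Frmd5, a FERM domain protein (1.68, adjusted p = 0.0269), and Lgals7, a galectin known from stratified epithelia (1.61, adjusted p = 0.0482). Of the 4 knockout arrays of day 6, 3 detected Cxcl13, 0 Ang4, 1 Crabp1, 3 Frmd5 and 4 Lgals7. The difference of Lgals7 at day 6 was 0.32 over all arrays and -0.15 in the first set, so its sign differs between them. Other Lgals7 probes were detected on 3 and 1 knockout arrays of days 2 and 4. Their genotype differences over those days were -0.03 and -0.23.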

How the results depend on the processing

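The difference over days 2 and 4 held its extent: 4726 to 7310 features passed the test among settings with 1 probe a gene, 6383 to 7157 when single arrays were left out, and 9710 of 20489 with every probe as its own feature. Against a minimum difference of 1, 1193 passed. Of 163 named genes called over both days, 156 kept direction and call in every setting and 0 reversed. Atf2, Fosb, Jund, Junb, Col1a1, Tubb5 and Anxa2 lost the call in 1 or more settings. The naming rule favoured large differences on these same arrays, so the share does not describe all called features. Of the genes not called, the difference of Fos (0.04) reversed to -0.21 under median scaling and -0.44 at day 2 alone, and ran from -0.18 to 0.22 without single arrays, below 0 without wildtype day 4 replicate 2 (-0.18) or knockout day 4 replicate 1 (-0.09) or 2 (-0.02). That of Fgf7 (-0.10) reversed to 0.18 at day 4 alone, and ran from -0.17 to 0.056 without single arrays, above 0 without wildtype day 2 replicate 1, while it passed the test at -0.38 at day 2 alone. Median scaling left 35% of the calls higher in the knockout over both days, 31% at day 2 and 37.1% at day 4. The cause was not tested.

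The tests of change were less stable. The 9 features that changed between day 2 and day 4 became 2 with all 18 arrays normalised together, 25 under median scaling, 28 without background correction, 30 in the deposited matrix, 18 with array weights, 0 without the dim-probe filter, 0 without the intensity trend, and 0 to 74 without single arrays. The 7 features of day 6 became 0 under median scaling, 0 without the set block, 0 within the first set, 0 with the replicate number as a block and 0 to 48 without single arrays. Their causes were not tested.

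In each group replicate 1 held RNA of 2 pooled inserts and replicate 2 that of 1 insert, and what else same-numbered arrays share is not given. In their deviations from the group means, same-numbered arrays correlated at -0.01 at day 2 and -0.18 at day 4. These values cannot show whether the arrays were paired. With the replicate block 6620 features passed over both days, 4982 at day 2, 4731 at day 4 and 8 for the change between them; with the day 4 pairs crossed these were 7257, 6265, 6154 and 81. The array chip as a block was not run, since the headers name no chip. Signals not above background limit what can be said of the 270 features seen in the wildtype alone and the 224 seen in the knockout alone, whose folds are bounds.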
